A study of Mus musculus with 9 samples.

Results

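The Notch receptors, ligands and targets described here are 10 genes: the 4 receptors Notch1, Notch2, Notch3 and Notch4, the ligands Jag1, Jag2 and Dll4, and the target genes Hey1, Hey2 and Hes1. They were chosen by symbol, ignoring case, from the 19053 genes with a probe, and all 14 of their probes were followed on 9 Illumina mouse bead arrays. The arrays fall into 3 groups of 3. All cells came from mice with the allele Gt(ROSA)26Sortm1(EYFP)Cos, a B6.129X1 stock given with C57BL/6J as strain background, in which Cre recombinase switches on YFP.

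The YFP-positive cardiomyocytes were obtained by flow sorting of the left ventricular apex. This was done 28 days after 1 subcutaneous injection of 200 mg per kg of isoproterenol, which stimulates beta-adrenergic receptors and damages the myocardium. Their mice had received a lentivirus carrying a c-kit/cre construct, so YFP marks cells in which that construct was active, and their descendants. The adult cardiomyocytes were isolated from mice of the same strain and are labelled normal. The eCSCs are c-kit-positive, CD45-negative endogenous cardiac stem cells harvested at passage 4. The sample titles call the YFP-positive cells in vitro while the design text has them sorted from the heart, and the isoproterenol protocol stands with all 3 groups. Neither point could be settled from the labels.

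In Notch signalling, a receptor on one cell is cut when a Jagged or Delta-like ligand on its neighbour binds it. The freed intracellular part enters the nucleus, joins the DNA-binding protein RBPJ and a Mastermind coactivator, and turns on repressors of the Hes and Hey families. In the heart the pathway is known for its roles in endothelium, in vessel walls and in valve and trabecula formation, and Notch4 and Dll4 are best known from blood vessels.

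The arrays detected 15326 to 19048 of 45281 probes each, with median raw signals of 93.6 to 117.9. YFP-positive replicate 2 was nearer the adult arrays than its fellows were: across genes, which are not independent replicates, it correlated with them at 0.923 on average, and replicates 1 and 3 at 0.877 and 0.881. It also had the lowest array weight (0.479). All 11 cardiomyocyte markers tested were detected on every YFP-positive and adult array, and 1 to 3 of them on an eCSC array. The brightest probe of Kit, the receptor that defines the eCSC isolation, was detected on 3 of 3 YFP-positive arrays and on no adult or eCSC array. Kit had 2 further probes, and neither was detected on an eCSC array. The labels do not state whether replicates are separate animals or cultures, and p-values therefore speak of the spread among these samples, which may be technical.

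Levels below are normalized signals on the log2 scale, and a difference is the first group minus the second on that scale. Each adjusted p is limma's, with Benjamini-Hochberg adjustment over 18180 probes, and a difference is called when it is below 0.05. Because probes differ in brightness, levels are compared between groups and never between genes. Where a probe was detected on no array of a group, the difference to that group is given as a bound. It is written as at least N-fold and holds under the processing used here. For that bound, the bright group's mean was divided by the dimmest detected signal on each array of the other group, or by the probe's own value there if larger. Sizes against an undetected group also depend on the offset of 16 used in the background correction, and other ways of processing can give less than the bound. For YFP-positive cells against eCSCs, the bounds of Dll4 and Hey2 are 0.87 and 0.97 on the log2 scale. Their lowest differences over the other ways of processing were 0.27 and 0.52. For adult cells against eCSCs, the bounds of Notch1 and Dll4 are 1.19 and 0.32, and the lowest differences were 0.46 and 0.13.

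Of the 14 probes, 10 passed the filter for detection on all 3 arrays of at least 1 group, and they cover 8 of the 10 genes. The remaining 4 were detected on no array: both probes of the receptor Notch2 (levels of 4.20 to 4.65), the probe of the ligand Jag1 (4.30 to 4.57) and 1 of the 2 probes of Dll4 (4.27 to 4.62). Notch2 and Jag1 therefore have no difference to report, and these probes do not tell whether the transcripts were absent. Notch4 and Hes1 are the members detected on all 9 arrays. Notch1, Jag2, Dll4 and Hey2 were detected on no eCSC array, so against eCSCs they could only be higher. Notch3 and Hey1, detected on 2 and 1 of 3 eCSC arrays, passed through the cardiomyocyte groups alone, which favours a higher value there than in eCSCs. Dll4 and the second probes of Notch4 and Hey2 passed through the YFP-positive group alone, which favours a higher value there than in adult cells too.

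**Figure D1:**
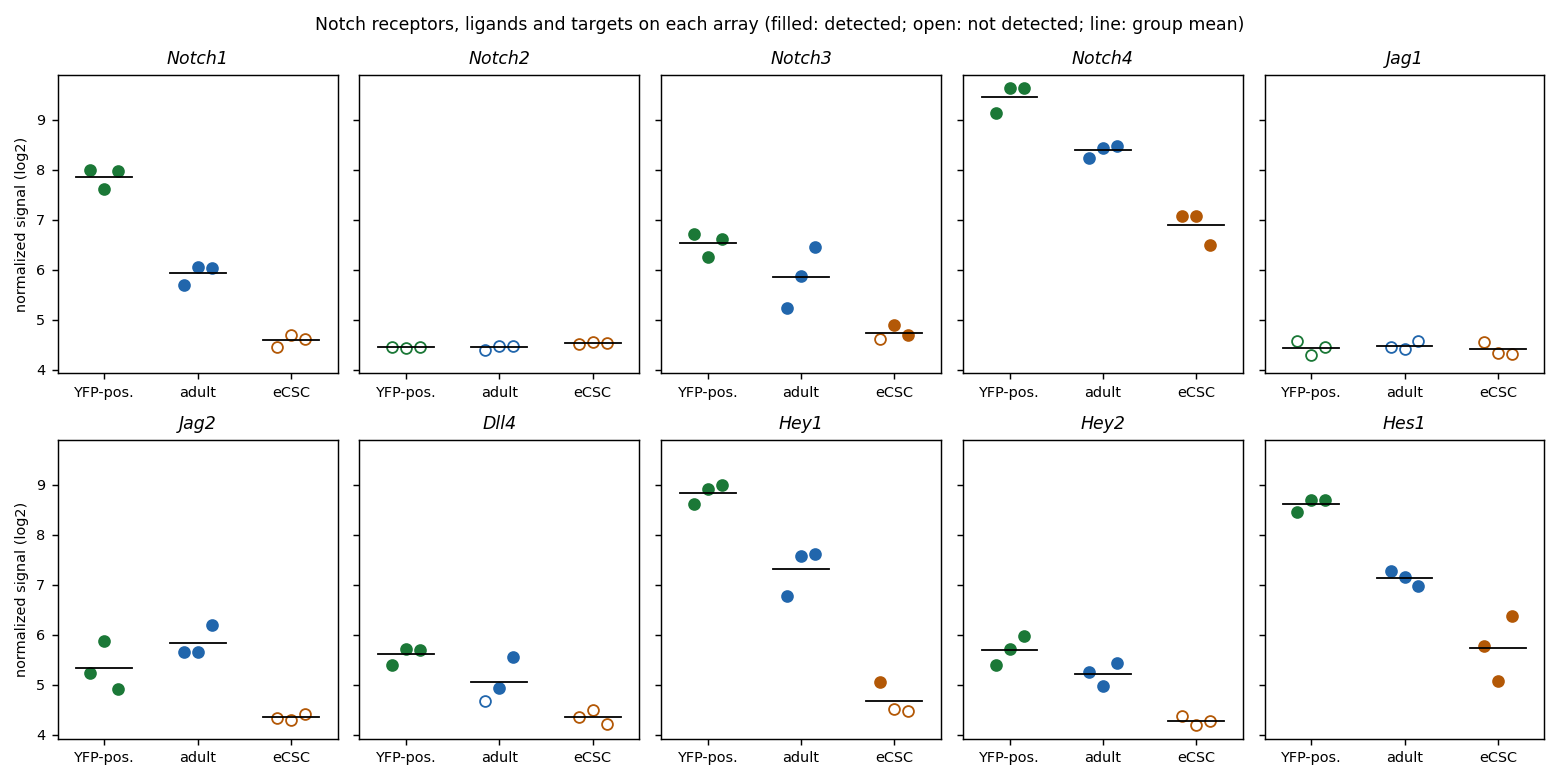
Normalized log2 signal (vertical axis) of the brightest probe of each of the 10 genes on each of the 9 arrays, with YFP-positive cardiomyocytes, adult cardiomyocytes and eCSCs from left to right; filled points were detected, open points were not, and the line is the mean of 3 arrays. Notch1, Notch4, Hey1 and Hes1 form 3 steps that do not overlap, and Notch2 and Jag1 stay near background on all arrays.

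Among the receptors, Notch1 had levels of 7.99, 7.62 and 7.97 on the YFP-positive arrays, 5.70, 6.05 and 6.03 on the adult arrays and 4.44, 4.68 and 4.62 on the eCSC arrays, where it was undetected. The 3 groups did not overlap, with YFP-positive cells highest and adult cells between. Notch1 is the receptor most broadly used across tissues and, in vessels, a mediator of the response to Dll4. YFP-positive cells exceeded eCSCs in Notch1 at least 8.71-fold (difference 3.28 ± 0.18 SE, adjusted p = 4.42e-10). The size depends on the processing: the difference was 1.61 without background correction, 1.67 in the series matrix, 1.66 in the authors' deposited gene-level table and 2.21 with an offset of 50. Adult cells exceeded eCSCs at least 2.28-fold (1.34 ± 0.18 SE, adjusted p = 6.16e-06). Between the cardiomyocyte groups, where all 6 arrays detected it, YFP-positive cells were 3.82-fold higher than adult cells (1.93 ± 0.18 SE, adjusted p = 9.37e-07). In bulk RNA, fewer cells of a type and less RNA per cell cannot be told apart, here and for each result below.

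The raw signals of Notch1 show how little of its range lies above background outside the YFP-positive group. They were 356.2, 205.0 and 368.3 on the YFP-positive arrays, 121.1, 127.5 and 116.4 on the adult arrays and 102.5, 107.9 and 123.8 on the eCSC arrays. Before background correction and normalization, the adult and eCSC signals thus overlapped, while every YFP-positive array was above all others. YFP-positive replicate 2 gave the lowest Notch1 signal of its group.

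Notch4, a receptor known mainly from vascular endothelium, had levels of 9.13, 9.63 and 9.63 in YFP-positive cells, 8.24, 8.43 and 8.48 in adult cells and 7.08, 7.08 and 6.49 in eCSCs. All 9 arrays detected it and no groups overlapped. YFP-positive cells were 5.98-fold above eCSCs (2.58 ± 0.21 SE, adjusted p = 3.64e-08) and 2.11-fold above adult cells (1.08 ± 0.21 SE, adjusted p = 0.000677). Adult cells were 2.83-fold above eCSCs (adjusted p = 9.05e-06).

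A second Notch4 probe was dim and disagreed in part. It read 4.98, 5.15 and 5.12 in YFP-positive cells, 4.43, 4.45 and 4.58 in adult cells and 4.39, 4.53 and 4.56 in eCSCs, and only the YFP-positive arrays detected it. It was at least 1.27-fold higher in YFP-positive cells than in eCSCs (adjusted p = 0.00339) and at least 1.18-fold higher than in adult cells (adjusted p = 0.00592), the one direction that its passing the filter allowed. With both groups undetected, it gave no difference to report between adult cells and eCSCs.

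Notch3, the receptor of vascular smooth muscle and pericytes, had levels of 6.71, 6.25 and 6.62 in YFP-positive cells, 5.24, 5.87 and 6.46 in adult cells and 4.61, 4.89 and 4.69 in eCSCs, of which 2 of 3 arrays detected it. The adult arrays spread over more than a log2 unit and overlapped the YFP-positive ones, and in normalized signals both groups lay above every eCSC array. In raw signals the adult arrays (110.4, 122.0 and 129.0) overlapped the eCSC arrays (106.8, 112.3 and 126.0). Notch3 rose 3.48-fold in YFP-positive cells over eCSCs (1.80 ± 0.25 SE, adjusted p = 1.49e-05) and 2.19-fold in adult cells over eCSCs (1.13 ± 0.25 SE, adjusted p = 0.000894). These sizes depend on the processing. Over the alternatives the differences to eCSCs ran from 0.71 to 1.94 in YFP-positive cells and from 0.41 to 1.44 in adult cells. The adult difference was called under 20 of 21 alternatives. YFP-positive cells exceeded adult cells 1.59-fold (0.67 ± 0.25 SE, adjusted p = 0.0395). That call was lost without any 1 of 7 arrays, with an adjusted p of 0.125 without YFP-positive replicate 1, 0.109 without YFP-positive replicate 3, 0.209 without adult replicate 1 (difference 0.36) and 0.0806 without adult replicate 2. Without eCSC replicates 1, 2 or 3 it was 0.0531, 0.0510 or 0.0510.

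Among the ligands, Jag2 was the tested member whose normalized mean was higher in adult than in YFP-positive cells. Its raw means were 121.2 in YFP-positive and 119.4 in adult cells. Jag2 is a Jagged ligand, bound by Notch receptors on neighbouring cells. It read 5.24, 5.88 and 4.92 in YFP-positive cells, 5.66, 5.67 and 6.20 in adult cells and 4.35, 4.31 and 4.42 in eCSCs, where no array detected it. The cardiomyocyte groups overlapped through YFP-positive replicate 2, and their difference did not pass the test (-0.50 ± 0.23 SE, 95% interval -0.99 to -0.01 before adjustment, adjusted p = 0.0879). Without YFP-positive replicate 2 it was -0.76, with an adjusted p of 0.00805. With median scaling it was -0.06 (adjusted p = 0.874), and with no normalization 0.0153 (adjusted p = 0.974), so its direction is not firm. Jag2 was at least 1.53-fold higher in YFP-positive cells than in eCSCs (adjusted p = 0.00139) and at least 2.16-fold higher in adult cells than in eCSCs (adjusted p = 3.16e-05). These bounds are 0.61 and 1.11 on the log2 scale. Over the other ways of processing the lowest differences fell under them, at 0.34 and 0.52.

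Dll4, the Delta-like ligand of arterial and sprouting endothelium, read 5.41, 5.73 and 5.69 in YFP-positive cells, 4.67, 4.94 and 5.55 in adult cells, where 2 of 3 arrays detected it, and 4.37, 4.49 and 4.21 in eCSCs, where none did. It was at least 1.83-fold higher in YFP-positive cells than in eCSCs (adjusted p = 9.74e-05) and at least 1.25-fold higher in adult cells than in eCSCs (adjusted p = 0.00806). In raw signals the adult arrays (101.5, 104.5 and 106.6) overlapped the eCSC arrays (99.9, 103.4 and 103.7). The adult difference to eCSCs was not called without adult replicate 3, at 0.45 in place of 0.70 (adjusted p = 0.0501). YFP-positive and adult cells overlapped at adult replicate 3, with a difference of 0.55 ± 0.21 SE that passed (adjusted p = 0.0444). It was lost without any 1 of 6 arrays, with an adjusted p of 0.108 and 0.119 without YFP-positive replicates 2 and 3, 0.198 (difference 0.36) and 0.124 without adult replicates 1 and 2, and 0.0603 and 0.0553 without eCSC replicates 1 and 2.

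Of the target genes, Hey1 had the largest difference between groups of all tested members. Hey1 is a transcriptional repressor that Notch turns on in vessels and in the developing heart. It read 8.63, 8.92 and 8.99 in YFP-positive cells, 6.78, 7.57 and 7.62 in adult cells and 5.05, 4.52 and 4.48 in eCSCs, where 1 of 3 arrays detected it. The groups did not overlap. YFP-positive cells were 17.9-fold above eCSCs (4.17 ± 0.24 SE, adjusted p = 7.37e-10) and 2.88-fold above adult cells (1.53 ± 0.24 SE, adjusted p = 0.000125). Adult cells were 6.23-fold above eCSCs (2.64 ± 0.24 SE, adjusted p = 8.86e-08). With 1 eCSC array detecting it, the sizes against eCSCs are uncertain.

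Hes1, a repressor that answers to Notch in many cell types and to other signals as well, read 8.46, 8.70 and 8.70 in YFP-positive cells, 7.28, 7.16 and 6.98 in adult cells and 5.77, 5.08 and 6.38 in eCSCs. All 9 arrays detected it. The eCSC arrays varied most (SD 0.65, against 0.14 and 0.15 in YFP-positive and adult cells), and in normalized signals no groups overlapped. Raw signals were 208.7, 182.3 and 150.5 on the adult arrays and 145.5, 117.3 and 246.5 on the eCSC arrays. Before background correction and normalization, adult and eCSC signals thus overlapped, while every YFP-positive array was above both. Hes1 rose 7.32-fold in YFP-positive cells over eCSCs (2.87 ± 0.25 SE, adjusted p = 1.16e-07) and 2.78-fold over adult cells (1.47 ± 0.25 SE, adjusted p = 0.000307). Adult cells exceeded eCSCs 2.64-fold (1.40 ± 0.25 SE, adjusted p = 0.000149). That last call was lost with median scaling in place of quantile normalization (0.68, adjusted p = 0.147), under which the median of all genes moved to -0.68, so that relative to this median the difference was 1.36.

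Hey2, a repressor related to Hey1 and known from arterial endothelium and ventricular muscle, read 5.40, 5.73 and 5.99 in YFP-positive cells, 5.26, 4.98 and 5.43 in adult cells and 4.37, 4.19 and 4.28 in eCSCs, where it was undetected. It was at least 1.96-fold higher in YFP-positive cells than in eCSCs (adjusted p = 8.44e-06) and at least 1.40-fold higher in adult cells than in eCSCs (adjusted p = 0.000347). In raw signals the adult arrays (110.8, 105 and 104.9) overlapped the eCSC arrays (100, 89.8 and 108.9). Over the other ways of processing the lowest adult difference to eCSCs was 0.34, under the bound of 0.49 on the log2 scale. The cardiomyocyte groups overlapped, with a difference of 0.48 ± 0.19 SE that was just past the threshold (adjusted p = 0.0482). This call was lost without any 1 of 7 arrays, with an adjusted p of 0.0849 and 0.205 without YFP-positive replicates 2 and 3, 0.0805 and 0.185 without adult replicates 1 and 2, and 0.0629, 0.0601 and 0.0522 without eCSC replicates 1, 2 and 3. It was also lost with the replicate number of the labels as a block.

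The second Hey2 probe read 5.21, 5.20 and 5.49 in YFP-positive cells, 5.73, 4.58 and 4.91 in adult cells and 4.43, 4.21 and 4.30 in eCSCs. The highest value of all was on adult replicate 1. Between YFP-positive and adult cells its difference of 0.22 did not pass the test (adjusted p = 0.476). Without adult replicate 1 it was 0.55 (adjusted p = 0.0337) and without adult replicate 2 it was -0.02. Against eCSCs it was at least 1.48-fold higher in YFP-positive cells (adjusted p = 0.00201) and at least 1.26-fold higher in adult cells (adjusted p = 0.0101). The adult value fell short without adult replicate 1 (difference 0.43 in place of 0.76, adjusted p = 0.0589). In raw signals the YFP-positive arrays (125.5, 105.5 and 137) and the adult arrays (122, 99.5 and 99.2) both overlapped the eCSC arrays (102.1, 91.1 and 110). Over the other ways of processing the lowest differences to eCSCs were 0.35 and 0.29, under the bounds of 0.56 and 0.34 on the log2 scale.

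RefSeq promoter windows (GRCm38.p6, gene strand, from 250 bases before the annotated start to 30 after) matched 8 of the 10 members, all but Hes1 and Hey1. They were read for the core of the RBPJ site, TGGGAA or its reverse complement TTCCCA, and for the E-box CACGTG bound by Hes and Hey repressors, on both strands. Hey2, a target, is shown beside Notch1 and Notch4, the receptors whose groups did not overlap. Capitals mark the RBPJ core.
Hey2 (chr10:30842754-30843033, minus strand): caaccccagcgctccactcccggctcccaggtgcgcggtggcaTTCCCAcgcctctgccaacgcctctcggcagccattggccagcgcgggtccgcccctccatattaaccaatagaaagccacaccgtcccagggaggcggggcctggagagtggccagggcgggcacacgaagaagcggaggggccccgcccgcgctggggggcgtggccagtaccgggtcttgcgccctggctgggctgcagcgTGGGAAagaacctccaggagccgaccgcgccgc
Notch1 (chr2:26503793-26504072, minus strand): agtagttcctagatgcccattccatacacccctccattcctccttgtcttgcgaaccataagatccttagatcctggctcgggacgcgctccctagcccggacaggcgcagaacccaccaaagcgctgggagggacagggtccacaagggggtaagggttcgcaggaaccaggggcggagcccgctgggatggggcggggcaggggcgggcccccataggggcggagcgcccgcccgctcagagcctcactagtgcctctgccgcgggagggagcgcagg
Notch4 (chr17:34564045-34564324, plus strand): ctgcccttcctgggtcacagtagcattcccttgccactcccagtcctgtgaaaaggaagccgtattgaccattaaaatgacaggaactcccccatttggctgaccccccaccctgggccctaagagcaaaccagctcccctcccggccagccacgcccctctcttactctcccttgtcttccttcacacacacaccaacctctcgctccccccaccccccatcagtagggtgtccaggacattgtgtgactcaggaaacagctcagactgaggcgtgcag
Among the 8 windows, that of Hey2 held the core, at 2 places, with first bases at -207 and -3 counted from the start. The core is common: of 32851 RefSeq windows of this length, 23.8% held it and 3.40% held it at 2 or more places. The E-box was in none of the 8 windows and in 6.79% of all. A match of letters is a description of the window and no site of binding was measured.

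Counted by the brightest probe, all 8 tested members were higher in YFP-positive cells than in eCSCs, where 34.3% of the 10024 genes tested were higher, 38.6% lower and 72.8% changed in either direction. All 8 were also higher in adult cells than in eCSCs, against 35.7% of all genes higher, 39.4% lower and 75.1% changed. These comparisons share the eCSC arrays, and the filter described above left several members no other direction, so little can be read from these counts. With no normalization, 3 of 8 members were called between adult cells and eCSCs, namely Notch1, Jag2 and Hey1. Between YFP-positive and adult cells, 7 of the 8 were higher and none lower, against 22.6% of all genes higher, 27.6% lower and 50.1% changed. Dll4, one of the 7, passed the filter through the YFP-positive arrays alone. In normalized signals the groups did not overlap for 8, 8 and 4 members in these comparisons, against 76.1%, 77.7% and 58.8% of all genes. Median differences of the members were 2.19, 1.37 and 0.87, and those of all genes -0.10, -0.05 and -0.08.

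**Figure D2:**
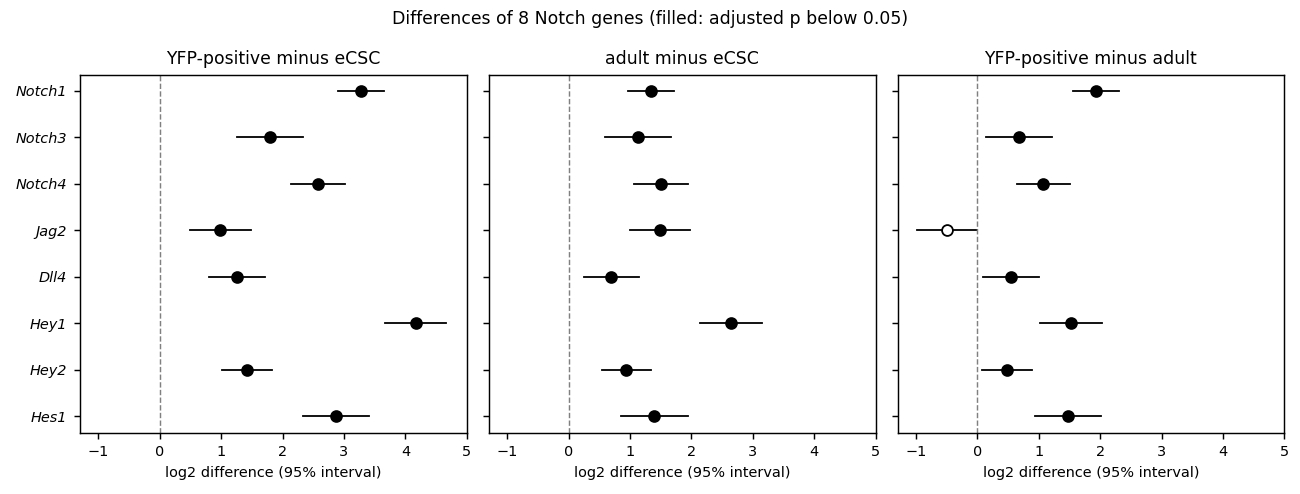
Log2 difference (horizontal axis) of the 8 tested genes with 95% intervals before adjustment, for YFP-positive minus eCSC, adult minus eCSC and YFP-positive minus adult; filled points have an adjusted p below 0.05. All points lie right of 0 except Jag2 between YFP-positive and adult cells, at -0.50.

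The 7 higher calls between YFP-positive and adult cells were of different firmness. Notch1, Notch4, Hey1 and Hes1 passed the test under every alternative that measured them, 21 for Notch1 and Hey1 and 22 for Notch4 and Hes1. Their differences there ran from 1.10 to 2.30 for Notch1, 0.68 to 1.38 for Notch4, 1.04 to 1.88 for Hey1 and 0.97 to 1.82 for Hes1. Notch3 passed under 8 of 21 alternatives, Dll4 under 9 of 21 and Hey2 under 6 of 21, with all differences above 0. For example, with a wider offset of 50 in the background correction 4 of 8 members were called, and with only these 2 groups in the model also 4. Between YFP-positive cells and eCSCs the differences ran from 1.61 to 3.40 for Notch1, 1.40 to 2.75 for Notch4, 2.35 to 4.35 for Hey1 and 1.68 to 3.19 for Hes1, all called.

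**Figure D3:**
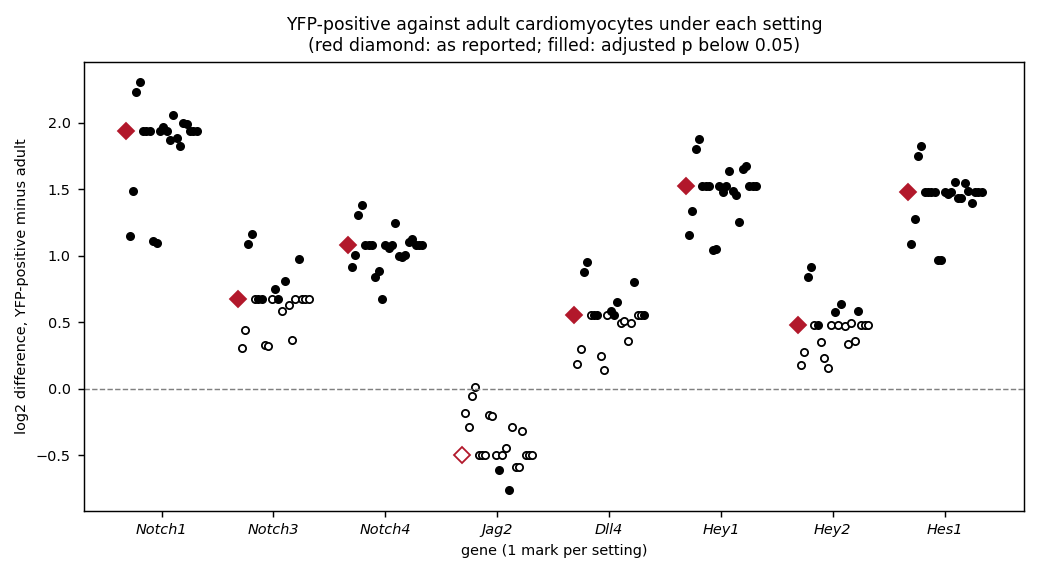
Log2 difference between YFP-positive and adult cardiomyocytes (vertical axis) for each tested gene, 1 mark for each way of processing; the red diamond is the value reported and filled marks have an adjusted p below 0.05. Notch1, Notch4, Hey1 and Hes1 are filled throughout, while Notch3, Dll4 and Hey2 pass in 8, 9 and 6 of 21 alternatives.

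Of 49 other Notch pathway genes listed by role, 43 had a probe and 32 were tested. In YFP-positive cells against eCSCs, 13 were higher (40.6%, against 34.3% of all genes) and 12 lower (37.5%, against 38.6%), with a median of -0.20. In adult cells against eCSCs, 11 were higher (34.4%, against 35.7%) and 10 lower (31.2%, against 39.4%), with a median of -0.19. Between YFP-positive and adult cells, 6 were higher (18.8%, against 22.6%) and 4 lower (12.5%, against 27.6%), with a median of 0.00. Against eCSCs these shares are near those of all genes, and nothing particular to the pathway is read from them. These splits move with the scaling: with median scaling, 11 of 28 called genes were higher in YFP-positive cells than in eCSCs, 6 of 25 in adult cells than in eCSCs and 6 of 7 in YFP-positive than in adult cells. Values below are of the brightest probe, and where median scaling ends a call this is given. Genes detected in a single group, Dlk1 in YFP-positive cells and Dner and Rbpj in eCSCs, entered the test through that group and could only be higher there, and genes undetected in eCSCs could only be higher in cardiomyocytes.

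Other ligands included the largest difference of the pathway. Dlk1, an imprinted ligand-like protein that lacks the receptor-binding domain of the Delta ligands, read 11.00, 10.55 and 10.29 in YFP-positive cells and was undetected on all adult and eCSC arrays. It was at least 58.8-fold above eCSCs (adjusted p = 6.86e-13) and at least 54.4-fold above adult cells (adjusted p = 3.45e-11). Its second probe gave log2 differences of 4.53 and 4.54. Dner, a transmembrane ligand of neurons, was detected in eCSCs only and was at least 2.29-fold lower in YFP-positive cells (adjusted p = 4.48e-06) and at least 1.98-fold lower in adult cells (adjusted p = 4.70e-06). Dll1, a Delta ligand, was undetected in eCSCs and at least 1.47-fold higher in YFP-positive cells (adjusted p = 0.000394). It was at least 1.13-fold higher in adult cells, of which 2 of 3 arrays detected it (adjusted p = 0.0153), and the difference between the cardiomyocyte groups was 0.38 (adjusted p = 0.101). The adult call was lost with median scaling (0.37, adjusted p = 0.182).

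Of 6 tested genes that glycosylate the receptors or ubiquitinate the ligands, 5 fell and 1 rose in YFP-positive cells against eCSCs. In adult cells 3 fell and none rose (6 fell with median scaling). Against eCSCs, 34.3% of all genes were higher and 38.6% lower in YFP-positive cells, and 35.7% and 39.4% in adult cells. Between YFP-positive and adult cells these shares were 22.6% and 27.6%. With so few genes per role, nothing particular to a role is read from such counts, here and for the roles below. Neurl1a, a ubiquitin ligase for Notch ligands, was 16.4-fold lower in YFP-positive and 8.15-fold lower in adult cells than in eCSCs, and 2.01-fold lower in YFP-positive than in adult cells (adjusted p = 0.00127). Its second probe gave log2 differences of -2.39 and -2.52 to eCSCs, against -4.03 and -3.03 by the first. The difference between the cardiomyocyte groups was 0.13 by the second probe (adjusted p = 0.653), and by the first probe it was -0.50 with median scaling (adjusted p = 0.189). Poglut1, which adds glucose to the receptors, was 3.07-fold lower in YFP-positive and 2.60-fold lower in adult cells than in eCSCs. Mib1, the ligase that drives ligand endocytosis, was 2.61-fold and 3.92-fold lower in those cells, with 2 of 3 adult arrays detecting it.

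Proteases that cut the receptors were unequal. Of 7 tested, 3 rose and none fell in YFP-positive cells against eCSCs, 4 rose and none fell in adult cells, and between the cardiomyocyte groups 1 fell. With median scaling 2 rose and 3 fell in YFP-positive cells and 3 rose and 2 fell in adult cells against eCSCs. Aph1a, a subunit of gamma-secretase, was undetected in eCSCs by its brightest probe and at least 25.0-fold higher in YFP-positive and 48.7-fold higher in adult cells. Its other probe gave log2 differences of 0.80 and 1.30, so the probes disagree on the size. Psen2, a catalytic subunit of gamma-secretase, was 3.10-fold and 4.00-fold higher in YFP-positive and adult cells than in eCSCs. Furin, the convertase that cleaves the receptor precursor, was 2.52-fold and 2.81-fold higher, and the YFP-positive call was lost with median scaling (0.58 in place of 1.33, adjusted p = 0.0934). A second Furin probe gave 0.58 and 1.26 against eCSCs, and was lower in YFP-positive than in adult cells (-0.68, adjusted p = 0.00914), where the first was not called (-0.16).

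Among 5 negative regulators, 2 rose and 2 fell in each cardiomyocyte group against eCSCs, and 2 were higher in YFP-positive than in adult cells. With median scaling, 1 rose and 3 fell in adult cells. Fbxw7, which marks the intracellular part of the receptor for degradation, was 4.97-fold higher in YFP-positive and 6.21-fold higher in adult cells than in eCSCs. Dtx2, a Deltex ubiquitin ligase, was 1.99-fold lower in YFP-positive and 3.52-fold lower in adult cells. Its 2 other probes gave log2 differences of -0.87 and -0.92 in YFP-positive cells and of -0.99 and -1.15 in adult cells, against -1.82 there by the brightest. Numb, an inhibitor of receptor signalling, was 2.94-fold higher in YFP-positive cells than in eCSCs by its brightest probe, with log2 differences of 0.01 to 0.23 by 3 other probes, none of which was called. Between adult cells and eCSCs its difference was 0.58 (adjusted p = 0.00962), and -0.33 with median scaling (adjusted p = 0.33). The 3 other Numb probes gave -0.03, -0.21 and -0.61 there, and the last was called lower (adjusted p = 0.0101), so the probes disagree on the direction.

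In the nuclear complex, 3 of 9 genes rose and 4 fell in YFP-positive cells against eCSCs, and 2 rose and 4 fell in adult cells. With median scaling these were 3 and 6, and 1 and 7. Kat2b, an acetyltransferase, was 1.81-fold higher in YFP-positive and 3.08-fold higher in adult cells than in eCSCs, and 1.70-fold lower in YFP-positive than in adult cells (adjusted p = 0.00205, and 0.435 with median scaling). Its second probe was not called between YFP-positive cells and eCSCs (0.42, adjusted p = 0.0659) and gave 1.05 between adult cells and eCSCs (adjusted p = 0.000187). Maml2, a Mastermind coactivator, was 2.61-fold higher in YFP-positive cells than in adult cells (adjusted p = 2.98e-05) and 2.61-fold higher than in eCSCs (adjusted p = 7.40e-06). It was not called between adult cells and eCSCs (adjusted p = 0.996), but fell by 0.72 with median scaling (adjusted p = 0.0301). Ctbp2, a corepressor, was 1.92-fold lower in YFP-positive and 2.45-fold lower in adult cells than in eCSCs, and its second probe gave log2 differences of -0.53 and -0.86. Rbpj, the DNA-binding partner of the receptors, was detected in eCSCs only, and was at least 1.60-fold lower in YFP-positive (adjusted p = 0.000158) and at least 1.38-fold lower in adult cells (adjusted p = 0.000114). Its 1 kept probe was dim in eCSCs too, at 5.35, 5.21 and 5.38. It does not tell whether the transcript was absent from the cardiomyocyte groups.

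Of 6 other genes listed as targets, 2 were tested, and whether Notch induces each of them in these cells was not tested. Nrarp, a target that feeds back to restrain Notch, read 7.60, 8.03 and 8.24 in YFP-positive cells, 6.76, 6.60 and 7.07 in adult cells and was undetected in eCSCs. It was at least 9.32-fold higher in YFP-positive (adjusted p = 4.19e-10) and at least 4.22-fold higher in adult cells (adjusted p = 2.16e-08) than in eCSCs, and 2.21-fold higher in YFP-positive than in adult cells (adjusted p = 0.00026). Hes6, a Hes family member that opposes Hes1, was 2.09-fold higher in YFP-positive and 2.51-fold higher in adult cells than in eCSCs, and between the cardiomyocyte groups its difference was -0.26 (adjusted p = 0.188). Its 2 other probes gave smaller log2 differences, of 0.31 (adjusted p = 0.0977, not called) and 0.50 in YFP-positive cells and of 0.71 and 0.65 in adult cells against eCSCs. With median scaling the Hes6 differences to eCSCs were 0.53 and 0.48 and not called (adjusted p = 0.109 and 0.143), and the third turned to 0.05.

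**Figure D4:**
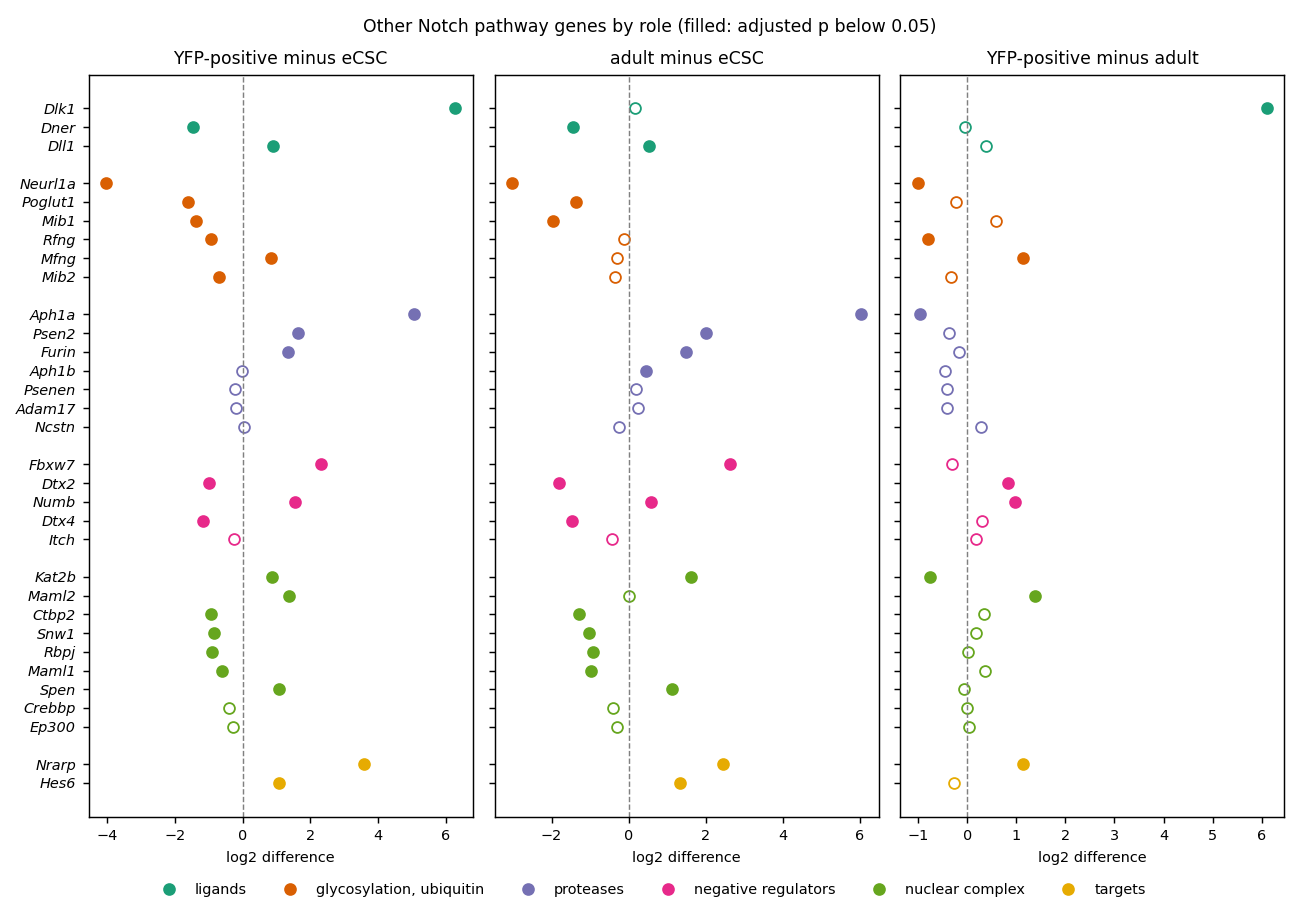
Log2 differences (horizontal axis) of 32 other Notch pathway genes, grouped and coloured by role from ligands at the top to targets at the bottom, for the same 3 comparisons; filled points have an adjusted p below 0.05. Points lie on both sides of 0, with Dlk1 farthest right in the comparisons of YFP-positive cells.

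Markers of other cell types also differed between the groups, and not every list moved as the members did. For the counts below, 22.6% of all genes were higher and 27.6% lower in YFP-positive than in adult cells. Against eCSCs these shares were 34.3% and 38.6% in YFP-positive cells, and 35.7% and 39.4% in adult cells. Of 16 endothelial markers with a probe, 14 were tested, and 13 to 14 of them were detected on a YFP-positive array, 14 on every adult array and 2 to 4 on an eCSC array. Their summed levels on the linear scale were 16783 to 17096 in YFP-positive cells, 5065 to 6568 in adult cells and 529 to 566 in eCSCs. Between YFP-positive and adult cells 12 were higher and 1, the receptor Kdr, was lower (13 and none with median scaling), with a median log2 difference of 1.60. Pecam1, Cdh5, Tie1, Emcn, Esam, Cldn5, Vwf, Robo4, Sox18 and Adgrl4 were undetected on all 3 eCSC arrays. Eng and Egfl7 were detected on all 3 (mean levels of 7.75 and 6.20), Kdr on 2 and Tek on 1. Against eCSCs, 13 of the 14 were higher in YFP-positive cells, all but Kdr (-0.27, adjusted p = 0.236), and 14 in adult cells (12 with median scaling).

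The 6 arterial endothelial markers summed to 2547 to 3451 in YFP-positive cells, 1559 to 1865 in adult cells and 269 to 303 in eCSCs. Of these, 5 were higher in YFP-positive than in adult cells, with a median of 1.03. Nrp1, a receptor for semaphorins and VEGF, had the highest signal in these sums, with mean log2 levels of 11.05, 10.44 and 6.29 in YFP-positive, adult and eCSC arrays. Against eCSCs, 4 were higher in YFP-positive cells, and Efnb2 (-0.30) and Unc5b (0.43) were not called. In adult cells 4 were higher and both Efnb2 (-0.62, adjusted p = 0.00438) and Unc5b (-0.68, adjusted p = 0.00835) were lower. Of 8 smooth muscle and pericyte markers 6 were tested, and they summed to 9638 to 10348 in YFP-positive cells, 3904 to 6585 in adult cells and 154 to 218 in eCSCs. Acta2 had the highest signal in these sums, with mean log2 levels of 13.12, 11.93 and 6.02 in YFP-positive, adult and eCSC arrays. Between YFP-positive and adult cells 1, Acta2, was higher and 1, Kcnj8, was lower (1 and none with median scaling). The other 4 were not called, and the median was 0.14.

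Fibroblast markers (8 of 9 tested) summed to 7437 to 9715 in YFP-positive cells, 1765 to 2767 in adult cells and 459 to 552 in eCSCs, and all 8 were higher in YFP-positive than in adult cells, with a median of 2.67. The adult sum was mostly Dcn, a matrix proteoglycan, with a mean log2 level of 10.89 in adult cells and 4.70 in eCSCs. Against eCSCs, all 8 were higher in YFP-positive cells (6 with no normalization), while in adult cells 4 were higher and 3 lower, with a median of 0.22 (3 higher, 4 lower and -0.26 with median scaling). The 3 were the collagens Col1a1 (-3.08), Col1a2 (-1.20) and Col3a1 (-1.18). Leukocyte markers (9 of 10 tested) summed to 2235 to 6155, 739 to 996 and 182 to 196 in YFP-positive, adult and eCSC arrays, and 7 were higher in YFP-positive than in adult cells. The 11 cardiomyocyte markers summed to 142634 to 161856 in YFP-positive cells, 173926 to 183140 in adult cells and 288 to 313 in eCSCs, and 5 were lower in YFP-positive than in adult cells (3 with median scaling and none with no normalization). The part of other cell types in the differences of the Notch genes was not tested.

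**Figure D5:**
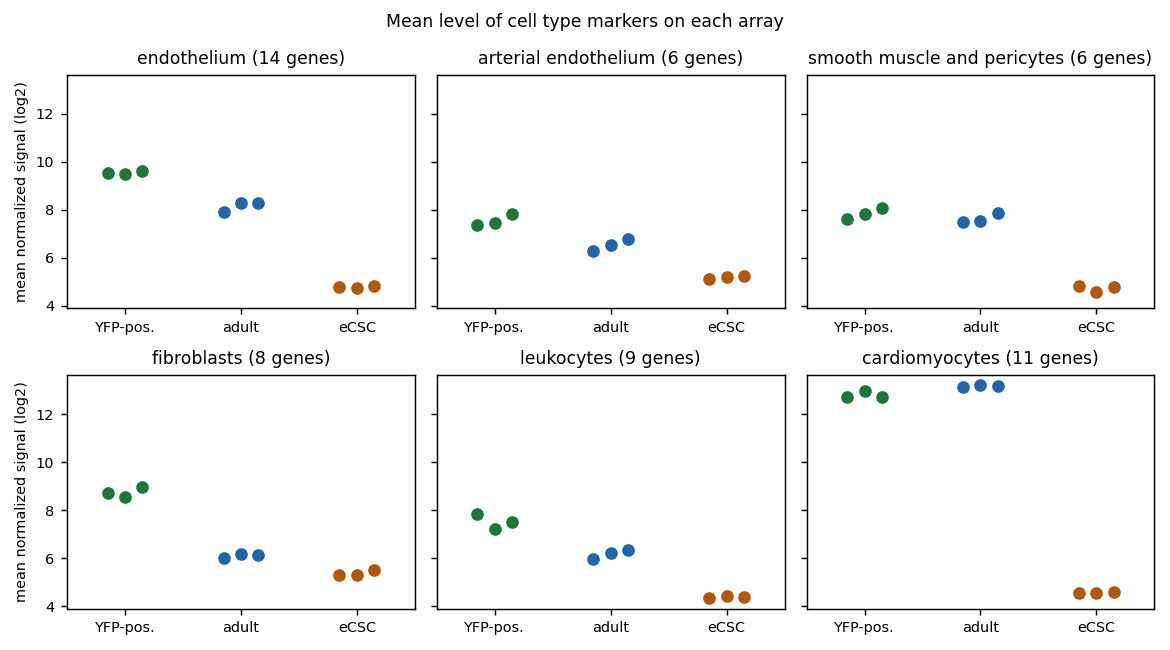
Mean normalized log2 signal (vertical axis) of the tested markers of 6 cell types on each array, with YFP-positive cardiomyocytes, adult cardiomyocytes and eCSCs from left to right. Endothelial markers step down from YFP-positive arrays (9.51 to 9.60) to adult arrays (7.92 to 8.30) and eCSC arrays (4.74 to 4.81), and cardiomyocyte markers are near each other on YFP-positive and adult arrays.

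The members whose group means spanned 2 or more log2 units were Notch1, Notch4, Hey1 and Hes1, and the 3 genes nearest each in pattern were taken from 9758 genes. Likeness is the mean absolute log2 difference between profiles centred on their own means over 9 arrays, and it is a description over arrays that share their groups. Nearest to Notch1 were Mmp23 (0.14), Dock6 (0.18) and Pcdh17 (0.19). Nearest to Notch4 were C1qtnf2 (0.18), Il27ra (0.19) and Ptprb (0.19). Hey1 was nearest to Smagp (0.17), Cdh5 (0.20) and Gngt2 (0.23), and Hes1 to Kcnk6 (0.21), Igfbp7 (0.24) and Dusp1 (0.25). Cdh5, the adhesion molecule VE-cadherin, also stands in the endothelial list above.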

How the data were processed

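The 9 samples were total RNA, made into biotin-labelled cRNA for Illumina mouse arrays according to the labels. The sample titles gave group and replicate number. The authors deposited unnormalized probe signals as intensities. A second column per array, a detection p-value per the file headers, holds a fraction that grows with the signal, namely the share of 936 negative control beads dimmer than the probe (100% whole shares, tolerance 0.01). Its complement served as the detection p. A series matrix of log2-like values and a gene-level table of normalized values, both deposited by the authors, served as alternatives. Per the submitters' processing notes R 2.15.3 and lumi 2.10.0 were used; how values were normalized is not given in the sources used here. A further 9 columns matched to no sample were not used. The replicate numbers in the gene-level table were not relied on, and its values served at group level.

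Normexp background correction by detection p-values (offset 16), quantile normalization and log2 followed (limma 3.58.1, R 4.3.3, and data.table at version 1.17.8). Python 3.11.15 with pandas 2.3.3 and matplotlib 3.10.9 read the promoters and drew the figures. The annotation gave 34885 of the 45281 probes 1 symbol, 18 several and 10378 none. Symbols were updated through RefSeq (GRCm38.p6) by Entrez ID for 34807 and accession for 11. The 18180 probes whose detection p was below 0.05 on every array of some group entered 1 model with a mean per group over all 9 arrays, tested two-sided by lmFit and eBayes with Benjamini-Hochberg adjustment, threshold 0.05, and the method was tested on simulated data. A gene counts by its brightest kept probe (10024 genes). The number of arrays, 3 per group, limits precision.

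The members, gene lists and tests were chosen with earlier results of these data known. All members are named, with up to 3 genes of each pathway list by smallest adjusted p over the comparisons, and Rbpj besides. For members whose group means span 2 or more log2 units, the 3 nearest genes are named, clone and predicted names left out. Alternatives changed the background correction, scaling, filter, probe summary, source table, groups in the model, array weights and replicate block, and left out each array. Leaving out normalization was an alternative chosen after seeing the data, as was the count of pathway and marker lists under other scalings. Same-numbered replicates deviated together by r of -0.06 to 0.12, so the numbers were not taken as pairs.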

Additional observations from a re-analysis of the deposited data

How the results depend on the processing

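All 8 tested members stayed higher in YFP-positive cells than in eCSCs under every alternative that measured them. For Notch1, Jag2, Dll4 and Hey2, detected on no eCSC array, no other direction was open. Notch3 and Hey1 passed the filter through the cardiomyocyte groups alone, which favours this direction. Their direction is therefore little tested by the alternatives. Notch4 and Hes1 were detected on all 9 arrays. Members called between YFP-positive and adult cells numbered 7 as reported, 4 without background correction, with offset 50, with no filter, in the series matrix, in the authors' normalized gene-level table and with only the 2 groups, and 4 to 7 with an array left out. Requiring detection on all 9 arrays left 2 members to test, Notch4 and Hes1, and 2 were called in each comparison. It left 21 other pathway genes, of which 14 (YFP-positive against eCSC) and 12 (adult against eCSC) were called, against 25 and 21, and 7374, 7930 and 5445 probes called, against 12955, 13514 and 8633, since fewer were tested. With no normalization, an alternative chosen after seeing the data, 3 members were called between adult cells and eCSCs, against 8; with an array left out that count was 7 to 8. Probes called between YFP-positive and adult cells numbered 5107 with median scaling and 4454 with no normalization; the cause was not tested. Leaving out an array gave 8 members called between YFP-positive cells and eCSCs throughout, 10 to 13 other pathway genes called between YFP-positive and adult cells and 6995 to 8909 probes.

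Scaling moved the median of all genes from -0.10, -0.05 and -0.08 to -0.49, -0.68 and 0.16 with median scaling, and to -0.55, -0.81 and 0.24 with no normalization. The share of called genes that were higher was 47.1%, 47.6% and 45.0% as reported, 34.9%, 29.4% and 73.2% with median scaling and 32.9%, 26.0% and 82.0% with no normalization. Relative to these medians, Notch1, Notch4, Hey1 and Hes1 differed between YFP-positive and adult cells by 2.07, 1.14, 1.64 and 1.59; the 2 scalings shift each array by a constant, so they give the same values here by construction. Between adult cells and eCSCs, no normalization ended the calls of Notch3 (0.58), Notch4 (0.52), Hey2 (0.56), Dll4 (0.36) and Hes1 (0.55), and relative to the median these were 1.39, 1.33, 1.36, 1.17 and 1.36. The cause was not tested. Dll4 also missed there with median scaling (0.49) and in the gene-level table (0.13).

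The sign turned for Jag2 between YFP-positive and adult cells with no normalization (0.0153), and array weights gave a call (-0.61, adjusted p = 0.02). It turned for the second Hey2 probe in that comparison without adult replicate 2 (-0.0245; 0.55 at the other end). The second Notch4 probe, undetected in both groups, turned between adult cells and eCSCs in the series matrix (0.0097), with array weights (0.0249) and with arrays left out (-0.0565 to 0.0302); none was called. With the replicate block, 8, 8 and 6 members and 25, 21 and 10 other pathway genes were called, and among members the block ended the Hey2 call and no other. Signals near background limit what can be read for Dll4, Hey2 and Jag2, and leave Notch2 and Jag1 with no difference.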
